A study of Mus musculus with 4 samples.

Results

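Wide H3K14ac regions are the entries of 2 deposited peak lists that span at least 300 bp, 1 for control and 1 for Nap1l2 knockdown C3H10T1/2 cells. The members were chosen by the listed width alone (end of the entry minus its start), and all entries below 300 bp are called narrower. There were 1420 wide regions among 10395 in the control and 3154 among 18438 in the knockdown, which made 4574 of 28833 in all. C3H10T1/2 is an established mesenchymal stem cell line from C3H mouse embryos. The series held 4 samples in 4 groups of 1, namely H3K14ac ChIP and input DNA of the control cells (titled WT, treatment label Non-target control) and of cells in which Nap1l2 was targeted by a lentiviral shRNA (titled sh-Nap1L2, treatment label Knockdown Nap1l2). Both ChIP samples used the same antibody lot, and neither the shRNA sequence nor the number of cell clones is given in the sources used here. The knockdown itself cannot be read from peak lists, since an shRNA acts on the transcript.

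Acetylation of lysine 14 on histone H3 (H3K14ac) is placed by acetyltransferases such as KAT2A, KAT6A, KAT6B and KAT7, is removed by deacetylases such as SIRT1, and is known from active promoters and enhancers. NAP1L2 belongs to the nucleosome assembly protein 1 family of histone chaperones, which carry histones to and from DNA. In a ChIP-seq list, the width of an entry is the stretch over which piled-up fragments stay above the background. Every entry of both lists, wide or narrower, spans at least 165 bp. Among narrower entries the lower quartile of width is also 165 bp in both lists. Many entries thus have the shortest width listed, which is not read as an extent of the mark. Mesenchymal cells of this line can be led to bone, fat, cartilage or muscle fates, and for this reason gene lists of those fates were examined.

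No group was replicated. None of the differences below can therefore be set against a spread between replicates, and the 95% intervals (exact Clopper-Pearson for a share, Newcombe for a difference of shares) cover counting error only. Regions of 1 library are not replicates of a condition, and the tags are PCR products without molecular identifiers. The control libraries were the deeper ones, since ChIP tags piled up to a mean of 2.5 per position, compared with 2.26 in the knockdown, and input tags to 1.51, compared with 1.27. The lowest summit listed had 9 tags for the control and 8 for the knockdown. Where the input background was lowest, a region could thus be listed at a lower pileup in the knockdown. The pileup needed elsewhere depends on the local background, and the pileup at region edges was not compared. The part of depth in the results below was not tested. In the file names the library numbers of 3 libraries run together and that of the control ChIP stands apart, so a batch and the group cannot be told apart.

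To show DNA that wide regions covered, they were set against the promoter windows that RefSeq (GRCm38.p6) gives for 17274 of the 21631 protein-coding genes, 21045 windows in all, from 250 bases before to 50 bases after a gene start. Only 6 of these windows were touched by a wide region. They belonged to Ugt1a1, whose enzyme conjugates bilirubin, and Aoc1, the diamine oxidase gene, in the control, and to Gm9736, the odorant receptor gene Olfr288, Tbc1d24, which acts in vesicle traffic, and the serine protease gene Prss28 in the knockdown. The 3 windows of which the wide region covered the most are printed here to show where in a promoter window a wide region lay, 5′ to 3′ on the strand of the gene, with the covered bases in capitals. They lie at chr6:48904736-48905035 on the plus strand for Aoc1, at chr17:24199908-24200207 on the minus strand for Tbc1d24, and at chr17:25308396-25308695 on the plus strand for Prss28.
Aoc1: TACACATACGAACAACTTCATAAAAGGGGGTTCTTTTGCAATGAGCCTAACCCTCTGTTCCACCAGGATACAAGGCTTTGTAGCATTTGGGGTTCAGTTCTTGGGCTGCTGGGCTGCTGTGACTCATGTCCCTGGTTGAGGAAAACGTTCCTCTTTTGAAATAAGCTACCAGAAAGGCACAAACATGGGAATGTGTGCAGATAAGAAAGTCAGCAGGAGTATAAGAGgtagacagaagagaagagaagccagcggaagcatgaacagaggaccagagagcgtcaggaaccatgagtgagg
Tbc1d24: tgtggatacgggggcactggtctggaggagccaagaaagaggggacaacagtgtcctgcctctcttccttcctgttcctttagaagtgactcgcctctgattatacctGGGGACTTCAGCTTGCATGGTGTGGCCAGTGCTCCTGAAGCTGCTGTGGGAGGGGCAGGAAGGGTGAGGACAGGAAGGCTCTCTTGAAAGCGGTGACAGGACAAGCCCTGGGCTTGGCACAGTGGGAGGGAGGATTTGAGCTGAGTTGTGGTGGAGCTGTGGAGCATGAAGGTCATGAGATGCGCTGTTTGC
Prss28: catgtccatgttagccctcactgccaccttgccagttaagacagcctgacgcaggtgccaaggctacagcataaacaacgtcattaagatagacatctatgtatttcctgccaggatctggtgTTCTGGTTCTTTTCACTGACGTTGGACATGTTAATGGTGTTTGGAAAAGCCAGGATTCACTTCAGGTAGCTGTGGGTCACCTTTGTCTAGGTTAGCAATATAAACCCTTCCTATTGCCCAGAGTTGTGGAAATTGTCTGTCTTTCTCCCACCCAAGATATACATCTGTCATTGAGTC

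The region in the Aoc1 window in the control was 368 bp wide, covered bases 1 to 227 and thus ended before the gene start, and had a summit of 15 tags with a −log10 p of 4.33. In the knockdown, the region at Tbc1d24 was 371 bp wide, covered bases 109 to 300 with the gene start, and had 13 tags and a −log10 p of 3.61, and the region at Prss28 was 337 bp wide, covered bases 124 to 300 with the gene start, and had 14 tags and a −log10 p of 4.15. The other 3 regions covered 60 bases at Ugt1a1, with the gene start, and 63 at Gm9736 and 88 at Olfr288, both before it. None of the 6 loci had a −log10 q above 0.118. The windows were poor in CpG, with 1 to 4 CpG dinucleotides and 45.3 to 56.7% GC, compared with a median of 13 CpG and 56.7% GC over all windows. Windows touched by narrower regions had a median of 4 CpG in the control (21 windows) and 3 in the knockdown (28 windows), so that low CpG content was shared by both classes. The TATAAA motif, sought on both strands, was present in the Prss28 window only, compared with 12.7% of all windows. The GGGCGG motif, also sought on both strands, was in none of the 6, compared with 46.7% of all windows, and in 4 of 21 and 2 of 28 windows of the narrower regions.

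The number of wide regions was first compared between the lists. Wide regions made up 13.7% of the control list (95% interval 13 to 14.3%) and 17.1% of the knockdown list (16.6 to 17.7%), a difference of 3.45 percentage points (2.58 to 4.29). They covered 520 kb, or 22.3% of the bases in the control list, and 1160 kb, or 27.3%, in the knockdown list. The knockdown held 2.22 times as many wide regions as the control (2.09 to 2.37) and 1.70 times as many narrower ones (1.66 to 1.75). The ratio was 1.68 below 200 bp, 1.69 from 200 to below 250 bp, and 1.79 from 250 to below 300 bp. Above the limit it was 2.20 from 300 to below 350 bp, 2.19 from 350 to below 400 bp, 2.27 from 400 to below 500 bp, and 2.31 from 500 to below 600 bp. For 600 bp or more the numbers were 19 and 53, a ratio of 2.79 with a wide interval (1.62 to 4.99). With the knockdown list cut to the length of the control list by −log10 p, the number of wide regions was 1786 against 1420, a ratio of 1.26, and the ratio of narrower ones was 0.959. Among regions whose summit had 12 tags or more, the ratio was 1.77 for wide and 1.35 for narrower regions.

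**Figure D1:**
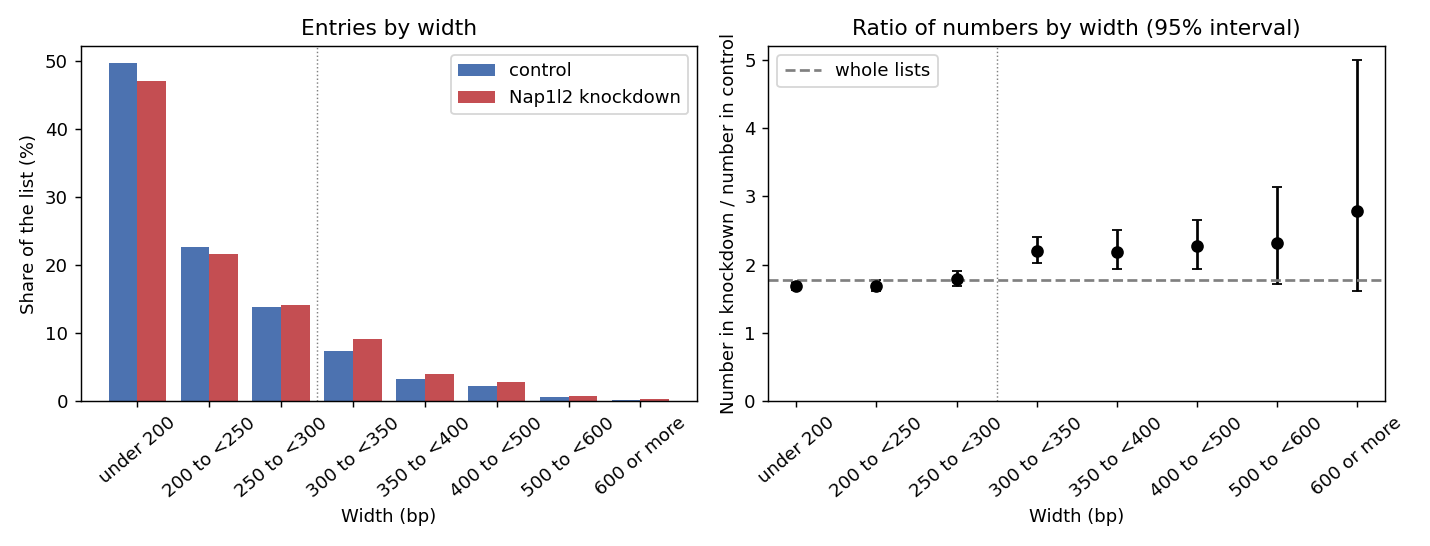
Left, share of each list (%) by width in bp, with bars for control and Nap1l2 knockdown. Right, number of knockdown regions over number of control regions by width, points with exact 95% intervals, a dashed line for the whole lists and a dotted line at 300 bp. The ratio lies between 1.68 and 1.79 below 300 bp and between 2.19 and 2.79 above it.

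The widths had a median of 344 bp in the control (lowest 300, highest 830 bp) and 345 bp in the knockdown (highest 860 bp), so the wide regions of both lists were of similar extent. Just outside the limit, at up to 5 bp below 300 bp, there were 118 control and 221 knockdown regions, with a median of 12 and 11 tags and a fold enrichment over input of 3.04 and 3.05. Just inside it, from 300 bp to 4 bp above, there were 110 and 206 regions, with a median of 12 tags in both and a fold enrichment of 3.08 and 3.11. The median −log10 p was 3.02 outside and 3.5 inside the limit in the control and 3.23 and 3.42 in the knockdown, so it was the higher one inside in both lists.

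Width and strength come from the same pileup, and the following values are a description. Wide regions were no stronger than narrower ones at the median. In the control both classes had a median of 13 tags at the summit, a fold enrichment of 3.28 and a −log10 p of 3.74. In the knockdown both had 12 tags, 3.17 and 3.44. The higher −log10 p just inside the limit was thus not seen between the whole classes. The range of the wide class was shorter at the top in the control, with at most 32 tags and a −log10 p of 10.1, compared with 93 tags and 25.2 among the narrower regions. In the knockdown the highest −log10 p was 15.6 among the wide and 15.3 among the narrower regions. Over all regions, Spearman's rho of width and summit tags was −0.028 in the control (10395 regions) and 0.0416 in the knockdown (18438 regions), and within the wide class it was 0.216 and 0.222, where all points of a list share 1 library. The limit of 1.3 in −log10 q (a q-value of 0.05) was reached by 20 wide control regions (1.41%, compared with 1.03% of the narrower ones) and by 115 wide knockdown regions (3.65%, compared with 1.67%).

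The share of wide regions was then followed over the summit pileup. In the control it was 12.6% for 10 or 11 tags, 14.8% for 12 or 13 tags, 12.6% for 14 or 15 tags, 15% for 16 to 19 tags and 16.6% for 20 or more (95% interval 11.9 to 22.2%). In the knockdown the same classes gave 17.5, 15.9, 16.8, 21.9 and 29.0% (25.1 to 33.0% for the last). The intervals of control and knockdown overlapped at 12 or 13 tags and lay apart, with the knockdown above, in the other 4 of these classes. Of 525 knockdown regions with 20 or more tags 152 were wide, compared with 36 of 217 in the control. Regions with 8 or 9 tags were wide in 3.47% of the control and 12% of the knockdown, and 8 tags were listed in the knockdown only.

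**Figure D2:**
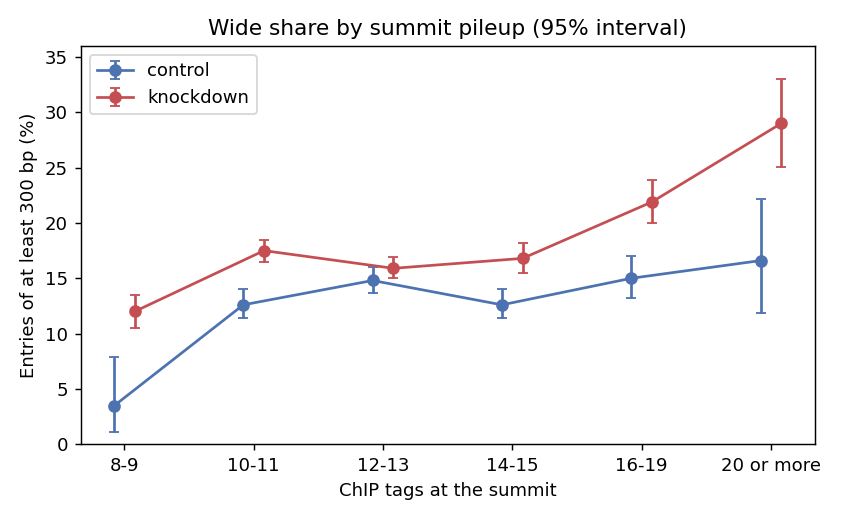
Share of regions of at least 300 bp (%) by ChIP tags at the summit, with exact 95% intervals, for control and knockdown. The knockdown reaches 29.0% at 20 or more tags, compared with 16.6% in the control, and both lists lie between 12 and 18% from 10 to 15 tags.

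The summit was off centre in most wide regions. It lay in the central part of the region, between the points that divide it into 3 equal lengths, in 21.8% of wide control regions and 24.1% of wide knockdown regions, compared with 52.7% and 54.5% of the narrower ones. The measure divides by the width that chose the regions, and narrower regions reach down to 165 bp. It is therefore a description only. The local input background was also higher. It exceeded the genome-wide level at 54.1% of wide control regions, compared with 49.6% of narrower ones (difference 4.49 percentage points, 1.69 to 7.27), and at 38.4% of wide knockdown regions, compared with 31.8% (difference 6.54 points, 4.70 to 8.40). The rise with width was uneven. The share was 45.6% below 200 bp, 56.2% from 250 to below 300 bp, 53% from 300 to below 350 bp, 49.7% from 350 to below 400 bp and 61.5% from 400 bp in the control, and 28.1, 37.2, 36.2, 37.8 and 44% in the knockdown. The chromosome 15, overlap and gene-end results below are therefore also given within each class of background.

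Among the 10 widest regions of each list, 4 lay on chromosome 15 in either list, and none overlapped the other list. Of all wide regions, chromosome 15 held 18.3% in the control and 11% in the knockdown. Only 3.94% and 1.84% of all wide regions overlapped the other list, so none among 10 is near these shares. The widest of the control was in Btnl4, a butyrophilin-like gene, on chromosome 17 (34470104 to 34470933, 830 bp), with 17 tags over a background of 4 and a −log10 p of 2.55. It was followed by a region in Gm8127 on chromosome 14 (43292915 to 43293742, 828 bp, 19 tags) and one in Adgrb1, an adhesion receptor gene, on chromosome 15 (74521513 to 74522325, 813 bp, 17 tags). Among these 10 control regions, that near Ado on chromosome 10 (67703937 to 67704636, 700 bp), 155 kb from this thiol dioxygenase gene, had the highest −log10 p with 7.58. The control regions at Btnl4 and Gm8127 lay at a gene end, and none of the 10 knockdown regions did, compared with 6.13% and 5.39% of all wide regions. The widest of the knockdown lay on chromosome X (37962632 to 37963491, 860 bp), 49.7 kb from Btg1b, with 24 tags over a background of 3 and a −log10 p of 5.47. Others lay 86.5 kb from the kinase gene Sgk1 on chromosome 10 (21794812 to 21795648, 837 bp, 20 tags), in the axonemal dynein gene Dnah8 on chromosome 17 (30753765 to 30754593, 829 bp, 16 tags) and in Galnt6, a gene for O-glycosylation, on chromosome 15 (100725890 to 100726670, 781 bp, 37 tags). The region in Zfp641 on chromosome 15 (98289416 to 98290176, 761 bp) was both among the 10 widest and among the 5 strongest, with 31 tags, a fold enrichment of 6.85 and a −log10 p of 12.4.

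The 5 wide control regions with the highest −log10 p lay in 4930467E23Rik (10.1), in Plcg2, a phospholipase gene (9.52), in Col4a2, a gene of basement membrane collagen (9.06), in Mb, the myoglobin gene (8.90), and in Elfn1 (8.41). Their widths were between 301 and 505 bp. In the knockdown they lay in Pde6a (15.6), 33.6 kb from Atp11a (14.5), 1.60 kb from Pnpla5 (12.6), in Zfp641 (12.4) and 187 kb from Gadd45g (11.1), with widths from 319 to 761 bp. None of these genes was on a gene list used here.

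The distribution over chromosomes was next compared. Chromosome 15 held 260 wide control regions, which was 18.3% of them, compared with 13.5% of the narrower ones (difference 4.85 percentage points, 2.79 to 7.06). In the knockdown it held 347 wide regions, or 11%, compared with 8.87% (difference 2.14 points, 0.994 to 3.36). The local background was raised at 77.7% of wide and 77.6% of narrower control regions on this chromosome, and at 64.6% and 61.4% in the knockdown. Where the background was at the genome-wide level, chromosome 15 held 8.90% of wide and 5.97% of narrower control regions (difference 2.93 points, 0.845 to 5.45) and 6.33% and 5.02% in the knockdown (1.31 points, 0.218 to 2.55). Where it was raised, the shares were 26.3% and 21.1% in the control (5.23 points, 2.00 to 8.66) and 18.5% and 17.1% in the knockdown (1.41 points, −0.945 to 3.92).

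By chromosome, the share of regions that were wide ran from 6.67% on chromosome 3 (10 of 150) to 17.7% on chromosome 15 (260 of 1468) in the control, and from 12.4% on chromosome X (60 of 483) to 20.4% on chromosome 15 (347 of 1702) in the knockdown. In the control the interval lay above the share of the whole list on chromosomes 11, 14 and 15 and below it on chromosomes 3, 4, 5, 7, 9 and X. In the knockdown it lay above on chromosomes 15 and 16 and below on chromosomes 2, 3, 12 and X. Chromosome 15 was thus above in both lists, and chromosomes 3 and X below in both. The knockdown share was the higher one on 18 of 20 chromosomes, the exceptions being chromosome 2 (14.3% in the control, 14.2% in the knockdown) and chromosome 12 (14% and 13.9%). The number of wide regions in the knockdown over that in the control was largest on chromosome 3, at 6.20 (62 against 10, 3.16 to 13.6), where that of narrower regions was 2.86, and chromosome 5 followed with 5.2 (104 against 20, 3.20 to 8.86) and 2.1. It was smallest on chromosome 15, at 1.33 (347 against 260), compared with 1.12 for narrower regions. Over the 20 chromosomes, which share libraries and are not independent, the wide share in the control and that in the knockdown correlated with r = 0.574 (Pearson) and rho = 0.447 (Spearman).

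**Figure D3:**
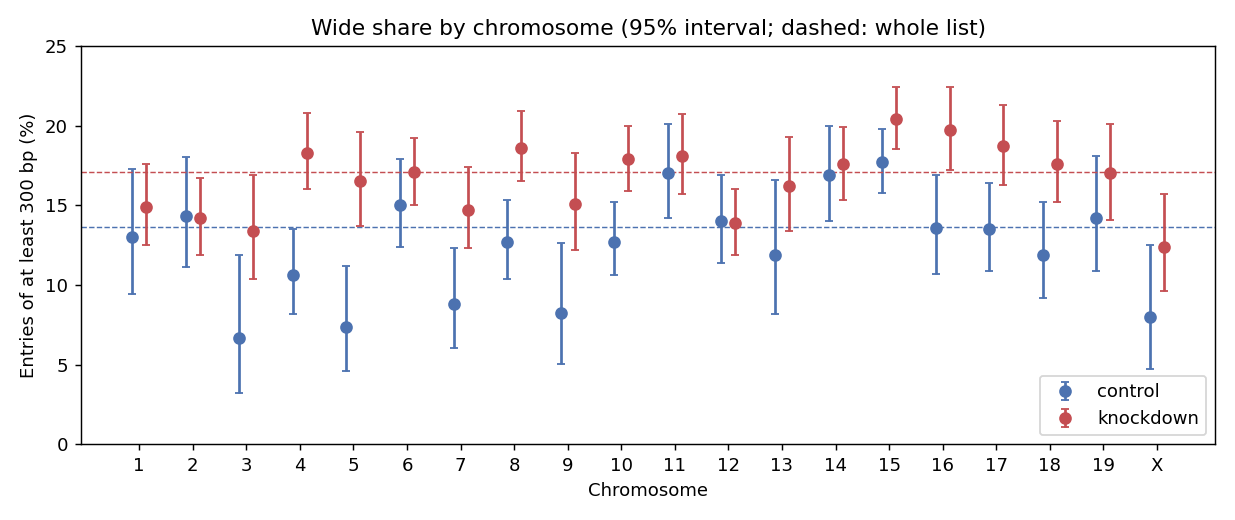
Share of regions of at least 300 bp (%) on each chromosome, with exact 95% intervals, and a dashed line for the share in the whole list of the same colour. Chromosome 15 is at the top in both lists (17.7% and 20.4%), and the spread between chromosomes is larger in the control, from 6.67%.

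In windows of 10 Mb, the most wide regions were found at 80 to 90 Mb of chromosome 15 in the control (50 of 236 regions) and at 110 to 120 Mb of chromosome 11 in the knockdown (48 of 193). The latter window held 42 of 174 in the control, and that of chromosome 15 held 42 of 218 in the knockdown, so both stood among the 5 highest windows of either list. At 110 to 120 Mb of chromosome 11, 24.1% and 24.9% of the regions were wide, and the local background was raised at 78.6% and 81.2% of these. A window of chromosome 16 at 90 to 100 Mb was among the 5 highest in the knockdown only (42 of 168, 25%). Wide regions also lay closer to other regions of their list. The nearest region was within 10 kb for 23.3% of wide and 19.4% of narrower control regions (difference 3.90 points, 1.62 to 6.31) and for 26.6% and 23.1% in the knockdown (3.54 points, 1.88 to 5.24). Within 1 kb the difference was 1.03 points in the control (0.0745 to 2.21) and 0.39 in the knockdown (−0.289 to 1.16), the latter within counting error. Spacing was not compared within chromosomes or within classes of background.

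To determine whether wide regions recurred in the other library, overlap with the other list was examined, which the choice by width did not use. Of the wide control regions, 56 overlapped a knockdown region by at least 1 bp (3.94%, 2.99 to 5.09%), compared with 170 narrower ones (1.89%, 1.62 to 2.20%) and 2.17% of the whole control list. Of the wide knockdown regions, 58 overlapped a control region (1.84%, 1.40 to 2.37%), compared with 168 narrower ones (1.10%) and 1.23% of the whole knockdown list. The differences were 2.05 percentage points in the control (1.11 to 3.22) and 0.740 in the knockdown (0.289 to 1.29). Because a wide region offers more bases for an overlap, the summit alone was also used, and it gave smaller differences. The summit lay inside a region of the other list for 28 wide control regions (1.97%, compared with 1.2% of narrower ones, difference 0.768 points, 0.116 to 1.66) and for 28 wide knockdown regions (0.888%, compared with 0.759%, difference 0.129 points, −0.183 to 0.541). In the knockdown, the difference was therefore within counting error by the summit.

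The overlap was also compared within each class of input background. Where the background was raised, 5.34% of wide and 2.56% of narrower control regions overlapped the knockdown list (difference 2.78 points, 1.31 to 4.65), and 3.55% and 1.97% of knockdown regions the control list (1.58 points, 0.578 to 2.83). Where it was at the genome-wide level, the shares were 2.30% and 1.24% in the control (1.06 points, 0.0897 to 2.55) and 0.772% and 0.691% in the knockdown (0.0806 points, −0.271 to 0.598). By the summit, the interval of the difference included 0 in each of these 4 classes. It was 0.987 points (−0.0154 to 2.41) for the control and 0.317 (−0.387 to 1.27) for the knockdown at raised background, and 0.431 (−0.245 to 1.63) and −0.091 (−0.328 to 0.306) at the genome-wide level. With only regions of a −log10 p of at least 5 in both lists, 0 of 196 wide control and 0 of 416 wide knockdown regions overlapped, and narrower regions overlapped at 0.157% and 0.12%. A count of 0 allows shares of up to 1.53% and 0.721% by a limit of 3 counts, and of up to 1.86% and 0.883% by the exact interval.

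A wide region that overlapped the other list did not meet a wide counterpart more often than a narrower one did beyond counting error. Of the 56 wide control regions, 15 overlapped a wide knockdown region (26.8%, 15.8 to 40.3%), compared with 43 of the 170 narrower ones (25.3%, 19 to 32.5%). Of the 58 wide knockdown regions, 15 met a wide control region (25.9%, 15.3 to 39.0%), compared with 41 of 168 (24.4%, 18.1 to 31.6%). In the whole lists, 17.1% of knockdown and 13.7% of control regions were wide. The shares among counterparts were higher for both classes, though the interval for wide control regions includes 17.1%. A wide counterpart offers more bases for an overlap, which raises these shares by construction, so no conclusion is drawn from them. The median width of the counterpart was 230 bp for both classes of control regions, and 216 and 232 bp for wide and narrower knockdown regions.

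**Figure D4:**
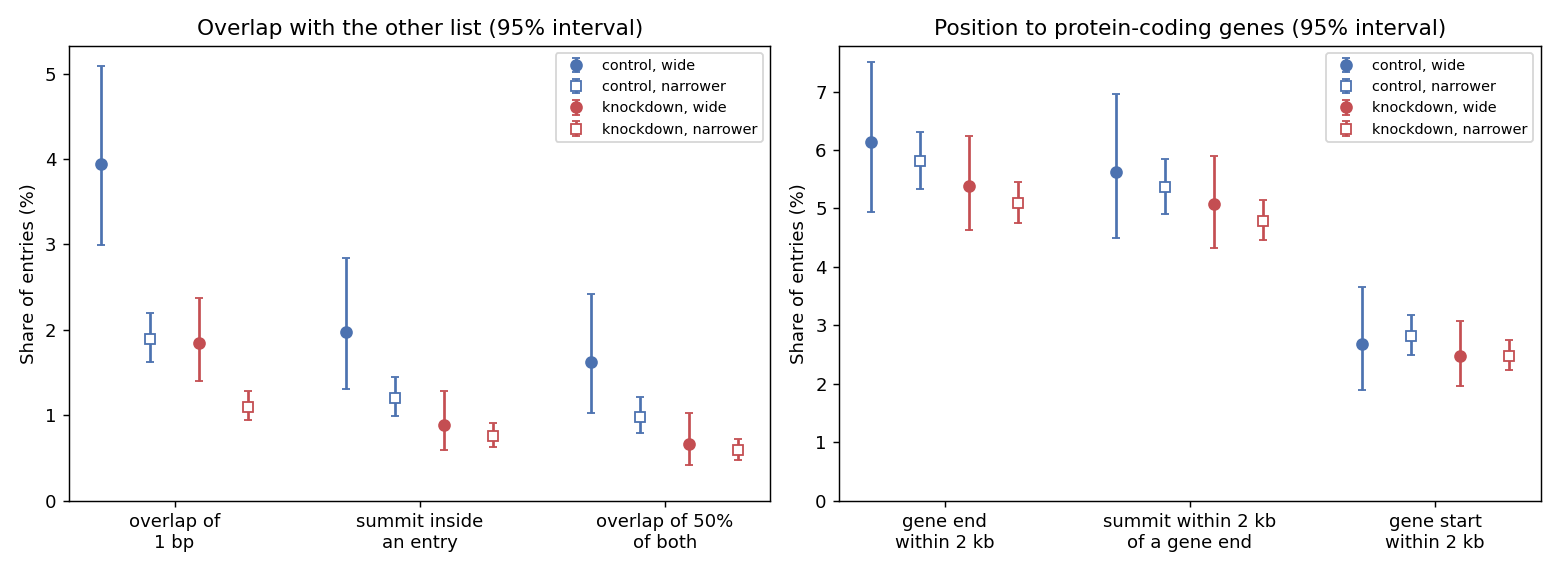
Left, share of wide (filled circles) and narrower (open squares) regions that overlap the other list by 3 definitions. Right, share near protein-coding genes by 3 definitions. Control and knockdown are in 2 colours and bars are exact 95% intervals. The wide class is higher for an overlap of 1 bp (3.94 against 1.89% and 1.84 against 1.10%), and the intervals of wide and narrower regions overlap in every comparison of the right panel.

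Regions wide in both libraries numbered 15. Of these, 5 lay on chromosome 15, which held 18.3% of all wide control and 11% of all wide knockdown regions. In a gene body lay 6 of the 15, near the 46.1% and 41.8% of all wide regions. The control and knockdown regions of a pair shared between 42 and 405 bp, with a median of 276 bp. Their summits were between 12 and 601 bp apart, within 100 bp in 7 of 15. The pileup at the summit was higher in the knockdown for 9, higher in the control for 4 and equal for 2. These are tag counts of 1 library each, not scaled for depth, and the difference was not tested. The knockdown region was the wider one in 11 of 15. The background was raised at 10 of the 15 in the control and at 12 in the knockdown, including the same 10. Among all wide regions it was raised at 54.1% and 38.4%. In the knockdown 5 of the 15 reached a −log10 q of 1.3, and in the control 0 of them did, compared with 3.65% and 1.41% of all wide regions.

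The largest difference in tags was 1.44 kb from Pnpla5, a gene of the patatin-like lipases, on chromosome 15, where the control region (84110785 to 84111180, 396 bp) had 16 tags and the knockdown region (84110543 to 84111021, 479 bp) had 31. Their −log10 p was 4.33 and 12.6. At Zc3hc1 on chromosome 6, 27.1 kb away, the tags were 13 and 25, but the overlap was 59 bp only and the summits were 601 bp apart. In Ncald, which encodes a neuronal calcium sensor, on chromosome 15 (control 37785708 to 37786057, knockdown 37785634 to 37786145), the tags were 18 and 28. At 46.1 kb from the amino acid transporter gene Slc1a4 on chromosome 11 (control 20378773 to 20379201, knockdown 20378797 to 20379303), they were 24 and 29, over an input background of 5 in the control and 2.81 in the knockdown. The order was the opposite at Bend4 on chromosome 5, 13.1 kb away (control 67378718 to 67379029, knockdown 67378702 to 67379112), with 17 tags and a −log10 p of 6.24 in the control and 12 tags and 3.44 in the knockdown. It was also the opposite in Cdh13, a cadherin gene, on chromosome 8 (control 119309450 to 119309753, knockdown 119309422 to 119309783), with 21 and 18 tags over a background of 3 and 1.34. In Lama4, a laminin chain gene of the basement membrane, on chromosome 10, the control region was 616 bp wide (38966975 to 38967590) with 14 tags and the knockdown region 324 bp (38966904 to 38967227) with 19 tags, and the summits were 12 bp apart. In Prickle1, a gene of planar cell polarity, on chromosome 15, both had 19 tags and the widths were 582 and 325 bp.

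**Figure D5:**
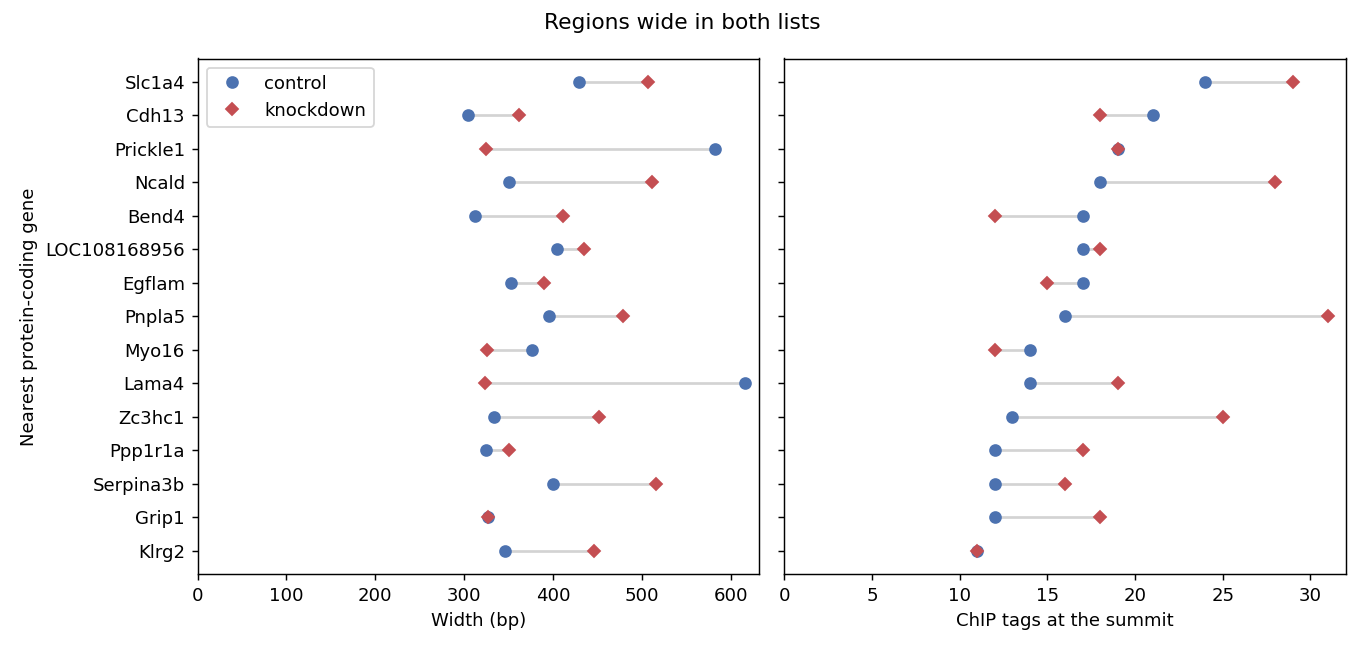
The 15 regions that were at least 300 bp wide in both lists, named by the nearest protein-coding gene, with their width in bp (left) and ChIP tags at the summit (right). Circles are the control and diamonds the knockdown, 1 library each, without error bars. The knockdown has more tags at 9 of the 15 and the region near Pnpla5 differs most, with 16 and 31 tags.

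Wide and narrower regions were also located relative to protein-coding genes, because promoters were of interest in the study. Because the gene table gives no strand, both ends of each gene were used. Within 2 kb of a gene end lay 87 wide control regions (6.13%, 4.94 to 7.50%), compared with 5.81% of narrower ones and 5.85% of the whole list. In the knockdown there were 170 (5.39%, 4.63 to 6.24%), compared with 5.10% of narrower ones and 5.15% of the whole list. The differences were 0.322 percentage points (−0.918 to 1.77) and 0.293 points (−0.526 to 1.2), both within counting error. By listed gene starts, where RefSeq gives them, the shares were 2.68% of wide and 2.82% of narrower control regions and 2.47% and 2.48% in the knockdown. Gene bodies held 46.1% of wide and 44.2% of narrower control regions (difference 1.88 points, −0.898 to 4.67) and 41.8% and 41.1% in the knockdown (0.687 points, −1.19 to 2.58). Promoter windows, such as those printed above, were touched by 0.141% of wide and 0.234% of narrower control regions and by 0.127% and 0.177% in the knockdown.

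Within the wide class, gene ends were more frequent among the widest control regions. Of 312 control regions of 400 bp or more, 30 lay at a gene end (9.62%, 6.58 to 13.4%), and 29 did by the summit alone, compared with 4.69% from 300 to below 350 bp and 6.18% from 350 to below 400 bp. In the knockdown these shares were 5.69% (41 of 720), 5.92% and 3.89%. Where the input background was raised, 7.68% of wide and 6.00% of narrower control regions lay at a gene end (difference 1.68 points, −0.151 to 3.89), and 6.61% and 4.91% in the knockdown (1.70 points, 0.276 to 3.34). Where it was not raised, the order was turned, namely 4.29% and 5.61% in the control (−1.32 points, −2.81 to 0.628) and 4.63% and 5.18% in the knockdown (−0.553 points, −1.51 to 0.553).

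The wide regions at gene ends with the highest −log10 p were at Gm6569 (7.66), Krt82 (7.29), Fignl2, Slf2, Trappc9, Krt84, Stac2, Prodh, Gng7 and Qrich2 in the control. Of these 10, 5 lay on chromosome 15, which held 18.3% of all wide control regions, and Krt82 (101548767 to 101549239, 20 tags) and Krt84 (101525261 to 101525581, 17 tags) are hair keratin genes there. In the knockdown they were at Pnpla5 (12.6), Ly6k (7.11), Olfr76 (6.95), Itgb2l, Itgad, Nudt11, 1700024G13Rik, Insc, Runx1 and Kcnk15. The list held the transcription factor gene Runx1 on chromosome 16 (92824087 to 92824390, 17 tags, −log10 p of 5.87) and the integrin genes Itgb2l and Itgad. Of these 10, 2 lay on chromosome 15, which held 11% of all wide knockdown regions. Among these named gene-end regions of both lists, only that at Pnpla5 overlapped the other list. Of all wide regions, 3.94% in the control and 1.84% in the knockdown did.

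At the level of genes, 594 of 21631 protein-coding genes had a wide control region in the gene or within 2 kb of it (2.75%), and 1058 had a wide knockdown region (4.89%). For regions of any width the shares were 13.2% and 18.9%. Of these genes, 189 were in both sets, which was 31.8% of the control set and 17.9% of the knockdown set, and they were long, with a median length of 230 kb compared with 17.3 kb over all protein-coding genes. The most wide regions were found in Trappc9 in the control (6, in a gene of 472 kb) and in the fragile-site gene Fhit in the knockdown (8, in 1612 kb). Other genes with many were Myt1l (5 control and 3 knockdown regions), Asic2 with 5 and 6, Atp8a2 with 4 and 6, Dscam with 2 and 7, Dnah8 with 3 and 6, and Rbfox3 with 3 and 6. These genes were between 249 and 1612 kb long, and they were picked after their counts were seen.

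Finally, genes of the lineages and pathways of the study were examined. Of 20 osteogenic genes, 1 had a wide region in either library, and this was Runx2, the master transcription factor of bone, on chromosome 17. The wide control region in Runx2 (44515367 to 44515690, 324 bp) had 11 tags and a −log10 p of 3.02, and the wide knockdown region (44710577 to 44711047, 471 bp) had 14 tags and a −log10 p of 4.25. They lay 19.4 kb and 104 kb from the nearer end of the gene, which spans 319 kb, and neither overlapped the other list. The osteogenic genes Sp7 and Bglap had no wide region in the gene or within 2 kb. Among 12 adipogenic genes, Zfp423, which acts early in fat commitment, had a wide control region 1.02 kb from an end (307 bp, 12 tags), and no gene had a wide knockdown region.

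Of 12 chondrogenic and myogenic genes, Sox5, a cartilage transcription factor gene of 954 kb, had 1 wide region of 8 in the control and 4 of 12 in the knockdown. The strongest of these knockdown regions (chromosome 6, 144015974 to 144016360, 387 bp) had 24 tags, with 8.05 for −log10 p and 2.3 for −log10 q. Its partner gene Sox6 had a wide knockdown region 0.799 kb from an end (368 bp, 12 tags). Of 16 senescence and NF-κB genes, 0 had a wide control region and 1 a wide knockdown region, namely Bcl2, an inhibitor of apoptosis, on chromosome 1 (106641485 to 106641817, 333 bp, 16 tags, −log10 p of 6.01). Of 24 genes of H3K14 acetylation and of the NAP1 family, only Kat6b had one, in the control (chromosome 14, 21601263 to 21601700, 438 bp, 12 tags), and Nap1l2 itself had none in either list.

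The 12 mesenchymal stromal markers, among them Thy1, Eng and Col1a1, had no wide region in either list, and neither did the 20 housekeeping genes, among them Actb and Gapdh. Of 12 markers of other cell types, Cdh5 and Cd3e had one in the control and Cdh5 and Pecam1 in the knockdown, all in the gene body. Peak positions are not expression, and the labelled cell type cannot be checked from them. Among the wide regions at genes of all these lists, only the strongest knockdown region in Sox5 reached a −log10 q of 1.3. No list held more than 2 genes with a wide region in a library, and the counts of these short lists were too small to be read against the 2.75% and 4.89% of all genes.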

How the data were processed

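H3K14ac ChIP and input were sequenced in control and Nap1l2 knockdown C3H10T1/2 cells, 1 library each. Per the labels, the submitters' processing notes name BWA 0.7.13, Picard 1.126, MACS2 2.1.0 and the build mm10 (GRCm38), without their roles. The file names state that read pairs became single-end tags, duplicates were removed, each ChIP was called against its input with a p-value limit of 0.01, and the list was filtered in a way not given in the sources used here. The authors deposited positions, a score of 10 times the −log10 p, the fold enrichment (a ratio to local input), −log10 p-value and −log10 q-value of each summit. Input samples were used only through these lists.

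Positions are given from 1. Width was end minus start. ChIP tags and local background were solved from the fold enrichment and −log10 p by the MACS2 equations, and 100% of entries were solved within 0.001 on the log10 scale. Background within 0.002 of its minimum was taken as genome-wide. The solver was tested on simulated entries. Regions overlapped from 1 bp, and gene ends were 2 kb either side of both ends of 21631 protein-coding genes. With 1 library a group no test was made, and exact Clopper-Pearson and Newcombe 95% intervals were computed (scipy 1.17.1, statsmodels 0.14.6). Planned GC, CpG and repeat content of the regions was not analysed here, as no genome sequence was used.

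Regions were named by a rule: in each list the 10 widest, the 5 wide ones with the highest −log10 p, the 10 at a gene end with the highest −log10 p, those wide in both lists, and those at genes of 8 lists. Genes with the most wide regions and the windows of 10 Mb were chosen after their values were seen. The members, lists and rule were chosen with earlier results of these data known.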

Additional observations from a re-analysis of the deposited data

How the results depend on the processing

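In this part values are in the order control and knockdown. The knockdown held more wide regions than the control under every setting run. The ratio was 2.01 for a width of at least 250 bp, compared with 1.69 for regions below 250 bp. Without chromosome 15 it was 2.42 for wide and 1.79 for narrower regions. With regions at the genome-wide background only, the ratios were 2.98 and 2.3. They were 1.77 and 1.35 with at least 12 tags at the summit, and 1.26 and 0.959 with lists of equal length. The wide share became 27.6% and 31.2% at 250 bp, 3% and 3.90% at 400 bp, 13% in the control without chromosome 15, 12.6% and 15.7% at the genome-wide background, and in the knockdown 19.9% with −log10 p from 5 upwards and 17.8% for at least 12 tags.

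The share of wide regions that overlapped the other list was 5.45% and 3.47% at 400 bp, 0% and 0% (of 196 and 416) with −log10 p from 5 upwards, 1.07% and 0.360% at the genome-wide background in both lists, 1.62% and 0.666% for an overlap of 50% of both, 8.31% and 4.12% within 1 kb, and 1.97% and 0.888% by summits. With the knockdown list cut to equal length it was 2.54% in the control. Both lists shrink in some of these settings, which lowers overlap by construction.

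The gene-end share was 9.62% in the control at 400 bp, 4.29% in the control at the genome-wide background, 4.57% in the knockdown with −log10 p from 5 upwards, 2.96% and 2.89% for 1 kb, 14.2% and 11.4% for 5 kb, and 2.68% and 2.47% for gene starts. Wide regions became the lower class at gene ends in some settings, for example with 5.06% against 5.19% of narrower ones in the knockdown at 250 bp, and with −log10 p from 5 upwards also in overlap in both lists (0% against 0.157% and 0.12%) and in gene bodies in the knockdown (40.4% against 41.1%). The chromosome 15 share was 21.2% in the control at 400 bp, 21.9% and 14.9% with −log10 p from 5 upwards, 8.90% and 6.33% at the genome-wide background, and 12.9% in the knockdown for at least 12 tags. The cause of these shifts was not tested. Of 91 alternative values for 11 results, 48 stayed within the interval of the reported value. Some of the 48 could not move, because the setting of equal length left the control list as it was. The control wide share of 13.7% is an example.

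The settings of at least 12 tags and of gene starts were chosen after seeing the data. No paired analysis was possible because there was a single sample per group, and no replicate could be left out. Median summits of 13 and 12 tags lay close to the lowest pileups listed, and the lists cannot show that a stretch lacks H3K14ac.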
